A study of Homo sapiens with 16 samples.

Results

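The 9 genes described here make, store, inactivate or hydroxylate estrogens, or encode the receptor that controls the hydroxylating enzymes. They were taken by name (HSD17B1, HSD17B12, STS, HSD17B2, HSD17B4, SULT1E1, CYP1A1, CYP1B1 and AHR) from the 26364 genes of the count tables, and all 9 were found in both. The tables hold bulk poly(A) RNA-seq counts from Ishikawa cells, a line from an endometrial adenocarcinoma, and from T-47D cells, a line from a breast carcinoma. Both lines were kept in medium stripped of hormones and then given 10 nM estradiol (E2) for 0, 2, 4 or 8 h. Cells without E2 received vehicle, according to the study's methods. Each line and time point had 2 replicates, which gives 16 libraries. No allele or other agent is named for any group, and each tissue is represented by 1 cell line. The labels do not say that replicates came from separate cultures, so p-values measure only the spread between these libraries.

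E2 is the most potent natural estrogen. It is formed by reduction of the weaker estrone, which is itself released from its sulfate store by steroid sulfatase, and it is removed by oxidation back to estrone, by sulfation and by hydroxylation of the ring. Enzymes of the 17beta-hydroxysteroid dehydrogenase family run the exchange between estrone and E2, and in the endometrium the oxidative HSD17B2 and the sulfotransferase SULT1E1 are known as progesterone-induced enzymes that lower local E2. CYP1A1 and CYP1B1 turn E2 into catechol estrogens and are textbook targets of the aryl hydrocarbon receptor, AHR, which binds DNA with its partner ARNT at a GCGTG core.

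Promoter windows of 300 bases, from 250 before to 50 after the annotated start, were found in the RefSeq table (GRCh38.p14) for 5 of the 9 genes, namely HSD17B4, STS, SULT1E1, CYP1A1 and AHR. HSD17B1, HSD17B2, HSD17B12 and CYP1B1 were not in that table. The windows of CYP1A1 and SULT1E1 are shown because these members fell in Ishikawa, and that of AHR because it encodes the receptor that acts on CYP1A1. The GCGTG core is in capitals. CYP1A1 lies on the minus strand at chr15:74725479-74725778, SULT1E1 on the minus strand at chr4:69860096-69860395 and AHR on the plus strand at chr7:17298402-17298701.
CYP1A1: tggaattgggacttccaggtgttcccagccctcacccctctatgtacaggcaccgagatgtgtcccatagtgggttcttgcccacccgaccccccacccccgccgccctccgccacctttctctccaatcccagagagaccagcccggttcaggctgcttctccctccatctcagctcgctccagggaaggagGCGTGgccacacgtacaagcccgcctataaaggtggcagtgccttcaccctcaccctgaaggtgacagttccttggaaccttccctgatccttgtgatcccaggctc
SULT1E1: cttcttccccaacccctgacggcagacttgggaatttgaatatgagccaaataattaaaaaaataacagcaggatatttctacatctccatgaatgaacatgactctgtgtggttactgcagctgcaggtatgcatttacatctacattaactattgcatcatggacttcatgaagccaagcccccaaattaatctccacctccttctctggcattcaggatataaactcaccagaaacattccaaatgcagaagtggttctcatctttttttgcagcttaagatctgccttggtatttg
AHR: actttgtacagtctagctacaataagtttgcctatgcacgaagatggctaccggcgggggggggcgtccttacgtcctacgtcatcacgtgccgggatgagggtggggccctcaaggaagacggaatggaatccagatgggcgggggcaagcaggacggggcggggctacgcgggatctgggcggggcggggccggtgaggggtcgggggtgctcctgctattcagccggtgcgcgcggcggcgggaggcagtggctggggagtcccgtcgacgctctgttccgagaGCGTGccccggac
The core began 57 bases before the start in CYP1A1 and 37 bases after it in AHR, and the SULT1E1 window held none. Of the windows not shown, that of HSD17B4 held none and 2 of the 5 alternative windows of STS held it on the reverse strand. On either strand, GCGTG (or its complement CACGC) occurred in 36.5% of 35116 promoter windows of the same length, so a match is common. The full palindromic estrogen response element, with half-sites GGTCA and TGACC 3 bases apart, occurred in 20 of those windows and in none of the members' windows.

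Library totals ranged from 41177912 to 58918642 counts in Ishikawa and from 41223813 to 64148903 in T-47D cells. By their medians over libraries, all 6 endometrial markers examined exceeded 1 CPM (the customary count scaled for library size, here with TMM scaling) in Ishikawa and none of the 6 did in T-47D cells, where their sum lay between 0.429 and 0.970 CPM. Of 6 breast luminal markers, 4 exceeded 1 CPM in T-47D cells (sum 2664 to 3468) and 2 did in Ishikawa cells (sum 42.5 to 50.6). Of these markers TFAP2B was at 0 in Ishikawa cells. The E2 target genes GREB1 and PGR rose at 2, 4 and 8 h in both lines. TFF1, the other E2 target gene examined, did not pass the filter on low counts in Ishikawa cells. In T-47D cells TFF1 missed the threshold at 2 h (log2 change 0.79, adjusted p 0.141, edgeR). It rose there at 4 h (1.40, adjusted p 0.00227) and at 8 h (1.70, adjusted p 0.000243). In Ishikawa cells the 4-h and 8-h libraries did not sort by their labels. The closest pair was 8 h replicate 1 with 4 h replicate 2, at a root mean square log2 difference of 0.329 over 15787 genes, against 0.353 between the 8-h replicates and 0.391 between the 4-h replicates. The labels were kept, and values with these 4 libraries taken as 1 group are given for each member called against 0 h in Ishikawa cells.

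At 0 h, before E2, the lines differed in the levels of most of these genes. HSD17B1, which reduces estrone to E2, was 5.72-fold higher in T-47D cells, AHR was 2.80-fold higher, STS, the sulfatase, 1.92-fold, CYP1B1 1.69-fold and HSD17B4, a peroxisomal enzyme that oxidises E2 and shortens fatty acids, 1.48-fold. CYP1A1 went the other way and was 6.16-fold higher in Ishikawa cells. The largest adjusted p among these 6 was 2.59e-05, for CYP1B1 (edgeR). HSD17B12, a reductase of fatty acid elongation that can also reduce estrone, did not differ detectably (log2 difference T-47D minus Ishikawa -0.03, SE 0.06, adjusted p 0.688 by edgeR's quasi-likelihood F-test after Benjamini-Hochberg correction).

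The inactivating pair HSD17B2 and SULT1E1 divided completely between the lines. SULT1E1, which attaches sulfate to E2, had 256 and 176 counts before E2 in Ishikawa and no count in any of the 8 T-47D libraries. Its mean level before E2 in Ishikawa cells was 63.6-fold a floor of 3 counts per library in T-47D cells. HSD17B2 had no count in any of the 8 Ishikawa libraries and 18 and 7 counts before E2 in T-47D cells. Its mean level before E2 in T-47D cells was 4.65-fold the same floor in Ishikawa cells. Both ratios rest on the mean of 2 replicates that differed, so neither is a lower limit. They take counts as independent reads and would be lower if the mates of a read pair were counted separately, which was not tested. HSD17B2 is thus a gene with few counts even where it was seen. In all, 8 of the 9 genes passed the test between lines at 0 h (edgeR, adjusted p under 0.05), where 81.9% of 17090 genes tested did, so a difference between these lines is no mark of the members. The line cannot be told apart from any difference in culture or library making between the lines.

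Levels of different genes are comparable only per length, here as CPM per kilobase of exon. In Ishikawa cells at 0 h the order was CYP1B1 (mean level 16.9), CYP1A1 (13.2), HSD17B12 (10.7), HSD17B1 (5.76), HSD17B4 (4.98), AHR (3.63), SULT1E1 (2.19), STS (0.882) and HSD17B2 (0), and no neighbours overlapped in their replicates. In T-47D cells HSD17B1 led (33.0), before CYP1B1 (28.5), HSD17B12 (10.5), AHR (10.2), HSD17B4 (7.36), CYP1A1 (2.15), STS (1.70), HSD17B2 (0.0309) and SULT1E1 (0). The replicates of HSD17B12 and AHR overlapped there, so these neighbours had no order. HSD17B1 thus ranked behind 3 members in Ishikawa and ahead of all in T-47D cells. The order depends on which length is used: per kilobase of coding sequence, HSD17B12 led in Ishikawa cells (88.6) and CYP1B1 in T-47D cells (105.6). The plot of levels per length shows both lines side by side.

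**Figure D1:**
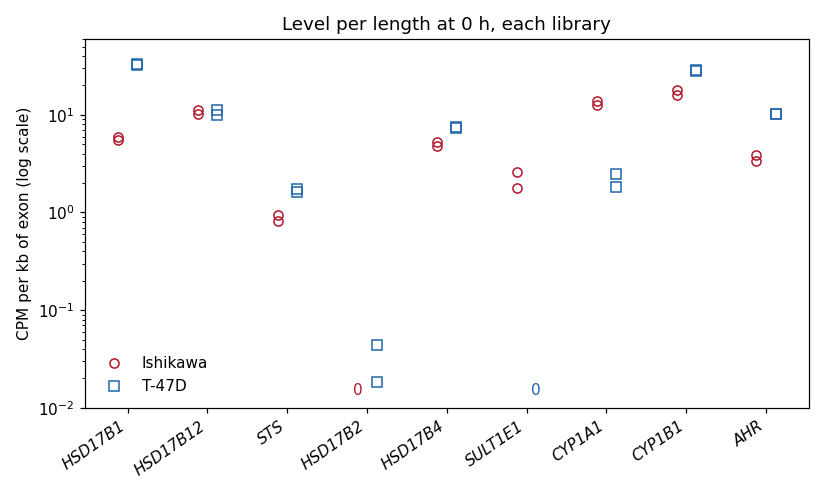
Levels of the 9 genes at 0 h as CPM per kilobase of exon, on a log axis, with 1 point per library (red circles, Ishikawa; blue squares, T-47D) and a written 0 where a gene had no count. HSD17B1 and AHR sit higher in T-47D cells, CYP1A1 sits higher in Ishikawa, and HSD17B2 and SULT1E1 are each at 0 in 1 line.

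More of these genes were called at 8 h than at 2 h of E2, as was so over all genes tested. In each line 8 of the 9 members passed the filter on low counts and were tested. In Ishikawa cells 1 of 8 changed at 2 h (4.35% of all genes tested were called), 1 at 4 h (14.3%) and 3 at 8 h (22.1%). In T-47D cells 1 of 8 changed at 2 h (9.3% of all genes tested), 3 at 4 h (21.5%) and 4 at 8 h (29.7%). The 3 contrasts of a line share their 0-h libraries. Calls rest on the edgeR test with an adjusted p under 0.05. The median log2 fold change of the 8 members at 8 h was 0.07 in Ishikawa cells, where all genes tested had -0.01, and -0.05 in T-47D cells, where all genes had 0.00300.

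**Figure D2:**
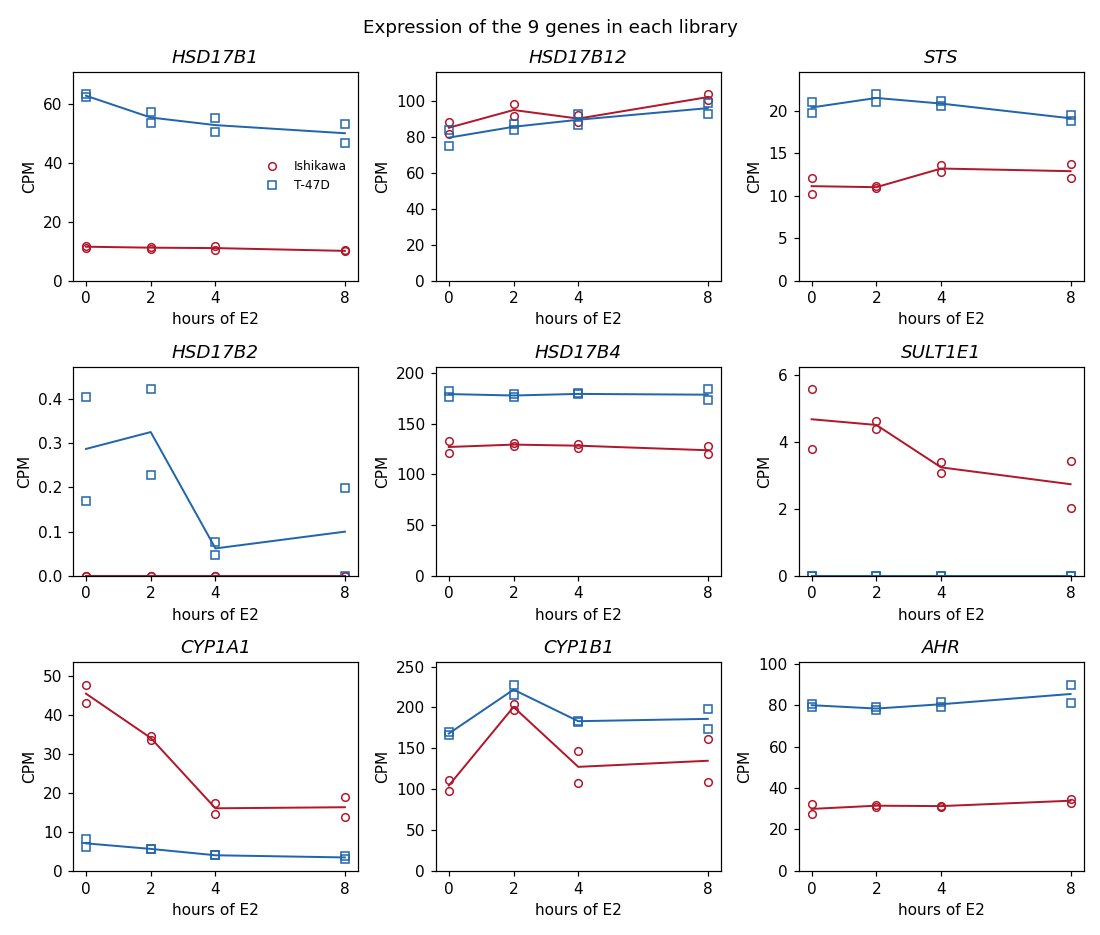
CPM of each gene in every library (red circles, Ishikawa; blue squares, T-47D) against hours of E2, with lines through the means of 2 replicates; each panel has its own vertical axis starting at 0. CYP1A1 falls in both lines, CYP1B1 peaks at 2 h in both lines, and HSD17B4 and AHR stay near their 0-h levels.

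Of the enzymes that form E2, HSD17B1 fell in T-47D cells and HSD17B12 rose in both lines. The HSD17B1 gene is at chr17:40704940-40707232 on the plus strand (GRCh37), where the annotation also has an antisense transcript, HSD17B1-AS1. In T-47D cells its level was 63.4 and 62.4 CPM before E2, 53.6 and 57.3 after 2 h, 50.4 and 55.4 after 4 h, and 53.4 and 46.9 after 8 h. Every treated library lay below both 0-h libraries. The log2 change was -0.18 at 2 h (adjusted p 0.0976), -0.25 at 4 h (0.00981) and -0.33 at 8 h (SE 0.07, adjusted p 0.000933), which left 79.7% of the 0-h level. Without T-47D 4 h replicate 1 the 4-h call was lost (-0.17, adjusted p 0.189), while the 8-h call held without any 1 library. In Ishikawa cells HSD17B1 ranged only from 9.90 to 11.9 CPM over the 8 libraries and passed the test at no time.

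HSD17B12 (chr11:43702230-43878167, plus strand, GRCh37) rose slowly. In Ishikawa cells it stood at 88.2 and 81.5 CPM before E2, 91.5 and 98.0 after 2 h, 87.9 and 92.0 after 4 h, and 100.3 and 103.5 after 8 h. In T-47D cells the values were 83.9 and 74.9 before E2, 86.9 and 83.9 after 2 h, 92.4 and 86.2 after 4 h, and 92.8 and 98.8 after 8 h. In each line the 8-h libraries were the highest and lay above both 0-h libraries. At 8 h the log2 change was 0.26 in Ishikawa cells (SE 0.06, adjusted p 0.00773) and 0.27 in T-47D cells (SE 0.06, adjusted p 0.00179). The call in T-47D cells at 4 h (0.17, adjusted p 0.0461) lost its threshold without any of 4 of the 8 libraries (T-47D 4 h replicate 1, both 2-h replicates and 0 h replicate 2, adjusted p up to 0.364). The Ishikawa call at 8 h was lost without 8 h replicate 2 (0.24, adjusted p 0.0628), without 0 h replicate 2 (0.21, adjusted p 0.0721) and with the 4-h and 8-h libraries as 1 group (0.18, adjusted p 0.0592).

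STS (chrX:7065278-7772399, plus strand, GRCh37), which frees estrone from its sulfate, did not pass the test against 0 h at any time in either line. Its level was 10.2 to 13.8 CPM in Ishikawa and 18.8 to 22.0 in T-47D cells. It overlaps PUDP (HDHD1 in the table) on the opposite strand, which had 9.19 to 12.7 CPM in Ishikawa and 24.5 to 30.5 in T-47D cells. The strand setting of the counting is not given in the sources used here, so reads of genes that overlap on opposite strands cannot be told apart.

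Of the enzymes that sulfate or oxidise E2, SULT1E1 fell in Ishikawa, and HSD17B2 and HSD17B4 passed no test against 0 h with all libraries. SULT1E1 (chr4:70706930-70725863, minus strand, GRCh37) was at 5.56 and 3.78 CPM before E2, 4.37 and 4.63 after 2 h, 3.08 and 3.39 after 4 h, and 3.43 and 2.03 after 8 h. The 4-h and 8-h libraries all lay below the 0-h pair, whose own replicates differed by more than the 4-h pair did. Its log2 fold change was -0.53 at 4 h (adjusted p 0.149) and -0.76 at 8 h (SE 0.23, adjusted p 0.0306), or 58.5% of the 0-h level. The 8-h call was lost without 0 h replicate 1 (-0.45, adjusted p 0.266) and without 8 h replicate 2 (-0.45, adjusted p 0.232), and it passed with the 4-h and 8-h libraries as 1 group (-0.64, adjusted p 0.0257). Leaving out a single library thus ended this call.

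HSD17B2 (chr16:82068609-82132139, plus strand, GRCh37) was countable only in T-47D cells. It had 18 and 7 counts before E2, 11 and 18 after 2 h, 3 and 4 after 4 h, and 0 and 10 after 8 h. The 4-h libraries lay below the 0-h libraries and the 8-h libraries overlapped them. The fitted log2 fold change at 4 h was -2.22 (SE 0.90) with an adjusted p of 0.0929, which missed the threshold, and it passed without 8 h replicate 1 (-2.21, adjusted p 0.0483). At 8 h the value was -1.51 (adjusted p 0.203), and without single libraries it ranged from -6.83 to -0.53, with a call only without 8 h replicate 2 (adjusted p 0.0205). The lowest of these rests on a lone 8-h library with 0 counts and is no measure of size. In Ishikawa cells 0 counts in a library allowed up to 0.0509 to 0.0744 CPM, taking 3 counts as the limit, which covers counting error only.

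HSD17B4 (chr5:118788160-118972894, plus strand, GRCh37) had no change past the threshold. It ranged from 119.6 to 132.4 CPM over the 8 Ishikawa libraries and from 173.2 to 183.6 over the 8 T-47D libraries. Its log2 fold change furthest from 0 was -0.04 (Ishikawa cells at 8 h, SE 0.06, adjusted p 0.713).

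Of the members called, the hydroxylating enzymes had the largest log2 changes, and these had opposite signs. CYP1A1 (chr15:75011883-75017877, minus strand, GRCh37) fell in both lines. In Ishikawa cells it was at 43.2 and 47.9 CPM before E2, 33.7 and 34.6 after 2 h, 14.7 and 17.5 after 4 h, and 18.9 and 13.8 after 8 h. Each treated pair lay below both 0-h libraries, and the 4-h and 8-h pairs overlapped each other. The log2 fold change was -0.41 at 2 h (SE 0.12, adjusted p 0.0590), -1.50 at 4 h (SE 0.12, adjusted p 8.34e-07) and -1.47 at 8 h (SE 0.12, adjusted p 8.90e-07), so 35.3% and 35.9% of the 0-h level were left at 4 and 8 h. With the 4-h and 8-h libraries as 1 group the change was -1.48 (adjusted p 2.20e-08). The 2-h value crossed the threshold with DESeq2 (adjusted p 0.0201) and missed it with edgeR, where 4 of the 8 fits without 1 library passed.

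In T-47D cells CYP1A1 began lower, at 6.03 and 8.12 CPM before E2, and was at 5.60 and 5.70 after 2 h, 4.06 and 3.97 after 4 h, and 3.14 and 3.78 after 8 h. Here too every treated library lay below both 0-h libraries, and each later pair lay below the pair before it. The log2 fold change was -0.32 at 2 h (adjusted p 0.215), -0.81 at 4 h (SE 0.15, adjusted p 0.000757) and -1.03 at 8 h (SE 0.16, adjusted p 6.11e-05), which left 48.9% at 8 h. The 4-h and 8-h calls held in both lines without any 1 library.

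CYP1B1 (chr2:38294116-38337044, minus strand, GRCh37) rose early in both lines and then went back. In Ishikawa cells it was at 110.6 and 98.1 CPM before E2, 197.4 and 203.7 after 2 h, 108.0 and 146.6 after 4 h, and 161.0 and 108.4 after 8 h. The 2-h pair stood above all other Ishikawa libraries, while the 4-h and 8-h replicates each split widely, with 4 h replicate 1 and 8 h replicate 2 near the 0-h level. Its log2 fold change was 0.94 at 2 h (SE 0.15, adjusted p 0.000779), 0.29 at 4 h (adjusted p 0.208) and 0.37 at 8 h (adjusted p 0.0824). With the 4-h and 8-h libraries as 1 group it was 0.33 (adjusted p 0.0648). The 2-h call missed the threshold without 0 h replicate 2 (0.86, adjusted p 0.0593). Without single libraries the 4-h value ranged from 0.05 (without 4 h replicate 2) to 0.48 with no call. The 8-h value ranged from 0.06 (without 8 h replicate 1) to 0.62 (without 8 h replicate 2, adjusted p 0.00202) and passed in 3 of 8 such fits.

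In T-47D cells CYP1B1 was at 169.8 and 166.2 CPM before E2, 215.4 and 227.9 after 2 h, 183.8 and 182.4 after 4 h, and 173.9 and 198.0 after 8 h. All treated libraries lay above the 0-h pair and the 2-h pair was the highest. Its log2 fold change was 0.40 at 2 h (SE 0.05, adjusted p 4.76e-05), 0.12 at 4 h (adjusted p 0.114) and 0.15 at 8 h (adjusted p 0.0489). The 8-h value passed in only 3 of the 8 fits that left out 1 library. Without 8 h replicate 2 it was 0.06 (adjusted p 0.434).

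The return of CYP1B1 was tested directly against 2 h, a contrast added after the data were seen. In Ishikawa cells CYP1B1 fell from 2 h to 4 h (-0.66, SE 0.14, adjusted p 0.0269) and reached -0.57 at 8 h (adjusted p 0.0530). The 4-h call held in only 3 of the 8 fits without 1 library, and DESeq2 gave an adjusted p of 0.147. In T-47D cells CYP1B1 fell from 2 h to 4 h (-0.28, SE 0.05, adjusted p 0.00555) and from 2 h to 8 h (-0.25, SE 0.05, adjusted p 0.00299), and of the fits without 1 library, those without 2 h replicate 2 alone lost the calls (adjusted p 0.125 and 0.0568). CYP1A1 also fell after 2 h, with log2 changes of -1.09 from 2 h to 4 h in Ishikawa cells (SE 0.12, adjusted p 0.000254) and of -0.71 from 2 h to 8 h in T-47D cells (SE 0.16, adjusted p 0.00440). Its change was -1.05 from 2 h to 8 h in Ishikawa cells (adjusted p 0.000255). From 2 h to 4 h in T-47D cells it was -0.49, which missed the threshold (adjusted p 0.0992) and passed in 2 of the 8 fits without 1 library. Against 2 h, members were called in Ishikawa cells in 2 of 8 cases at 4 h (2.39% of all genes tested) and 1 at 8 h (2.24%), and in T-47D cells in 1 at 4 h (3.4%) and 2 at 8 h (16.8%).

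**Figure D3:**
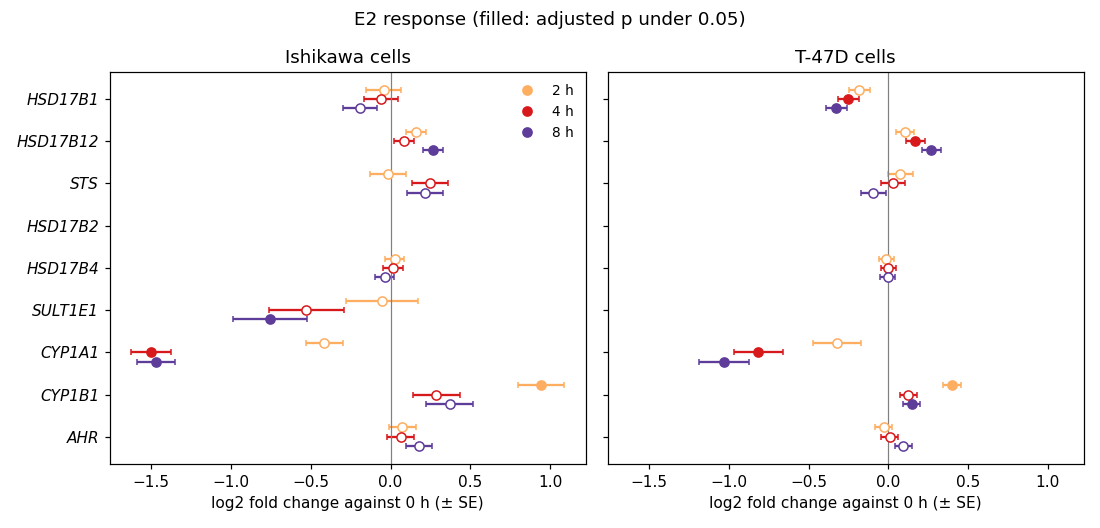
Log2 fold change against 0 h (± SE of the edgeR fit) for each gene at 2 h (orange), 4 h (red) and 8 h (purple), on 1 scale for both lines; filled points have an adjusted p under 0.05. HSD17B2 is not drawn because its counts were too few, and SULT1E1 had no counts in T-47D cells. CYP1A1 lies furthest to the left in both lines, at -1.47 and -1.03 after 8 h.

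The number of CYP1B1 counts per CYP1A1 count grew in each line. The ratio is taken within a library, so library scaling does not enter it. In Ishikawa cells it was 2.56 and 2.05 before E2, 5.86 and 5.88 after 2 h, 7.35 and 8.38 after 4 h, and 8.51 and 7.85 after 8 h. In T-47D cells it was 28.2 and 20.5 before E2, 38.5 and 40.0 after 2 h, 45.2 and 45.9 after 4 h, and 55.3 and 52.4 after 8 h. All treated libraries lay above the 0-h libraries of their line, and the highest Ishikawa ratio remained below the lowest T-47D ratio. The plot of the ratio shows most of its growth in Ishikawa cells within 4 h.

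**Figure D4:**
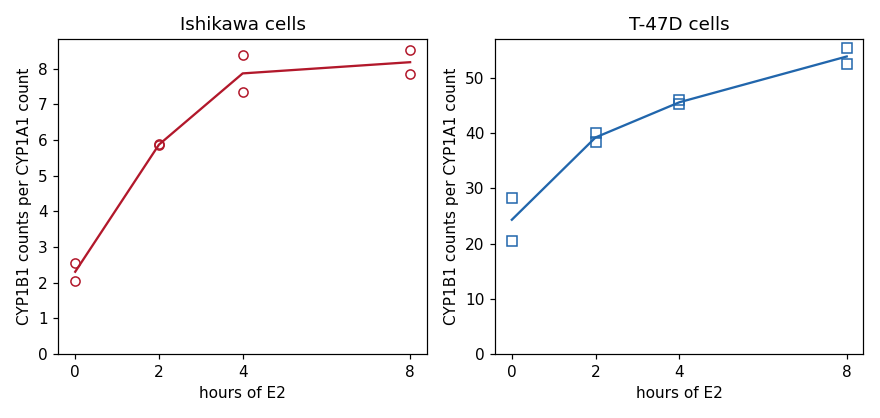
CYP1B1 counts per CYP1A1 count in each library against hours of E2, with lines through the means of 2 replicates and separate vertical axes that start at 0 for Ishikawa and T-47D cells. The ratio rises from 2.05 and 2.56 to 7.85 and 8.51 in Ishikawa and from 20.5 and 28.2 to 52.4 and 55.3 in T-47D cells.

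AHR (chr7:16955983-17385776, plus strand, GRCh37) did not pass the test against 0 h at any time with all libraries. It ranged from 27.6 to 34.9 CPM in Ishikawa and from 77.7 to 89.9 in T-47D cells. At 8 h its log2 fold change was 0.18 in Ishikawa cells (adjusted p 0.139) and 0.09 in T-47D cells (adjusted p 0.208). The 8-h value passed without Ishikawa 0 h replicate 1 (0.30, adjusted p 0.0182) and without T-47D 8 h replicate 1 (0.17, adjusted p 0.0186). At 0 h the line with more AHR transcript, T-47D, had less CYP1A1 transcript and more CYP1B1 transcript.

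Genes on the opposite strand of CYP1B1 were low, with RMDN2 at 1.10 to 5.76 CPM and CYP1B1-AS1 at 0.0228 to 1.34 CPM over both lines. A sum of markers of other cells, made up almost wholly of COL1A1, fell as CYP1A1 and SULT1E1 did in Ishikawa cells. The summed level of 8 markers of immune, endothelial and stromal cells was 255.0 and 278.5 CPM before E2, 216.7 and 236.0 after 2 h, 155.0 and 203.4 after 4 h, and 187.8 and 166.0 after 8 h. In T-47D cells the sum lay between 75.5 and 97.4 CPM, with the lowest value at 8 h. Nearly all of it was COL1A1 (median 203.2 CPM in Ishikawa and 84.7 in T-47D cells). CD3E had no count in Ishikawa cells. The medians of PTPRC, PECAM1, CDH5 and the stromal marker PDGFRB were at or near 0 in both lines (the highest was 0.0669 CPM). The medians of COL3A1 were 4.74 CPM in Ishikawa and 0.564 in T-47D cells, and those of CD68 were 1.94 and 2.90. The part of these markers in the result was not tested. In bulk RNA fewer cells that express a gene and less RNA per cell cannot be told apart.

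Whether a response differed between the lines was tested as T-47D minus Ishikawa over all 16 libraries. HSD17B2 and SULT1E1, each at 0 in 1 line, gave no estimate. Of the other 7 members, edgeR called 0 at 2 h, 0 at 4 h and 0 at 8 h, where 2.67%, 6.03% and 10% of 17090 genes were called, and 1 member at each time had an unadjusted p under 0.05. CYP1A1 at 4 h came closest, with a fall that was smaller by 0.70 on the log2 scale in T-47D cells (SE 0.21, adjusted p 0.0507). In the fits without 1 library the 4-h difference passed in 5 of 16. DESeq2 called it at 4 h (0.66, adjusted p 0.0334) and called 0 members at 2 and 8 h. At 8 h STS had the lowest adjusted p by edgeR (-0.31, SE 0.14, adjusted p 0.175), before CYP1A1 (0.44, SE 0.21, adjusted p 0.230). For CYP1B1 at 2 h the difference was -0.53 (SE 0.18, adjusted p 0.207), the rise in T-47D cells being the smaller. These differences were not shown at this depth and number of libraries, and a missed threshold does not show that the responses were alike.

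Other genes of estrogen metabolism were taken from 6 lists and are given by counts at 8 h, with up to 3 named per list and line. Among 17 further enzymes that make estrogens or their precursors, 12 were tested in Ishikawa cells, of which 0 rose and 2 fell (22.1% of all genes were called), and 11 in T-47D cells, of which 1 rose and 2 fell (29.7%). The median log2 fold change was 0.03 in Ishikawa and -0.06 in T-47D cells, where all genes tested had -0.01 and 0.00300. HSD3B7, which acts in bile acid synthesis, fell in both lines (-0.52 in Ishikawa cells, adjusted p 0.0255, and -0.16 in T-47D cells, 0.0489). AKR1C3, which reduces estrone and androstenedione, fell in Ishikawa cells from 9.73 and 10.2 to 7.67 and 7.28 CPM (-0.41, adjusted p 0.0310). In T-47D cells SRD5A1, a steroid 5alpha-reductase, rose (0.30, adjusted p 0.0248) and CYB5A, a cytochrome that assists steroid lyase activity, fell (-0.18, adjusted p 0.0112). Aromatase, CYP19A1, which makes estrogens from androgens, had 0 to 2 counts in any library of either line, and it is singled out after its values were seen.

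Of 17 relatives of the oxidative dehydrogenases, 12 were tested in Ishikawa cells (0 rose, 2 fell, median -0.05) and 13 in T-47D cells (1 rose, 1 fell, median 0.08), beside 22.1% and 29.7% of all genes. HSD17B14 (-0.29, adjusted p 0.0491) and AKR1C2 (-0.22, adjusted p 0.0230) fell in Ishikawa cells. RDH16 fell in T-47D cells from 7.09 and 6.91 to 4.68 and 4.10 CPM (-0.67, adjusted p 0.00235), and HSDL2 rose (0.15, adjusted p 0.0293). AKR1C2 and AKR1C3 share much of their sequence with each other, so their counts are uncertain.

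Of 17 sulfation and sulfatase genes in the tables, 12 were tested in Ishikawa cells (3 rose, 2 fell, median -0.06) and 11 in T-47D cells (1 rose, 1 fell, median -0.06), beside 22.1% and 29.7% of all genes. IMPAD1, a Golgi phosphatase that clears the by-product of sulfation, rose in both lines (0.33, adjusted p 0.00233 in Ishikawa, and 0.32, adjusted p 8.64e-05 in T-47D cells). PAPSS2, which makes the sulfate donor that SULT1E1 uses, rose in Ishikawa cells (0.35, adjusted p 0.0191), and SULT1C2 fell there (-0.49, adjusted p 0.0114). SULT2B1, a cholesterol sulfotransferase, fell in T-47D cells from 32.1 and 33.3 to 25.5 and 22.2 CPM (-0.46, adjusted p 0.000175).

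Of 30 genes of estrogen hydroxylation and conjugation, only 9 had enough counts to be tested in Ishikawa cells, where edgeR called 0 (median -0.13), and 8 in T-47D cells, where 1 rose and 1 fell (median -0.07), beside 22.1% and 29.7% of all genes. The glutathione transferase GSTM3 fell (-0.15, adjusted p 0.00250) and the quinone reductase NQO2 rose (0.24, adjusted p 0.0321) in T-47D cells. UGT1A1, which adds glucuronic acid to E2, had 0 counts in every library and was singled out after its values were seen. UGT1A3, UGT1A4, UGT1A6, UGT1A8 and UGT1A9 of the same family also had 0 counts in every library. How reads that fit several genes were counted is not given in the sources used here. These 0 counts therefore do not show that UGT1A1 was silent.

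Of 18 further genes of the AHR pathway, 13 were tested in Ishikawa cells (4 rose, 1 fell, median -0.06) and 15 in T-47D cells (3 rose, 4 fell, median -0.15), beside 22.1% and 29.7% of all genes. TIPARP, an ADP-ribosyltransferase induced by AHR that acts back on it, rose at 2 h in both lines, as CYP1B1 did and CYP1A1 did not. In Ishikawa cells it was at 26.6 and 22.2 CPM before E2, 47.9 and 49.1 after 2 h, 36.4 and 38.3 after 4 h, and 43.7 and 38.1 after 8 h, and the log2 fold change at 2 h was 0.99 (SE 0.09, adjusted p 3.67e-06). In T-47D cells it was at 45.8 and 45.4 before E2, 61.7 and 59.6 after 2 h, 49.3 and 48.3 after 4 h, and 48.6 and 51.1 after 8 h, and the log2 fold change at 2 h was 0.41 (SE 0.05, adjusted p 3.32e-05). The 2-h pair was the highest in each line. The chaperones PTGES3, HSP90AA1 and HSP90AB1, which hold AHR in the cytosol and serve many other proteins, rose at 8 h in both lines by 0.21 to 0.34, and ARNT, the partner of AHR, which is named here after its values were seen, fell (-0.23, adjusted p 0.0194 in Ishikawa, and -0.19, adjusted p 0.00463 in T-47D cells). The repressor AHRR, singled out after its values were seen, was at 5.63 to 9.93 CPM in Ishikawa and 4.56 to 5.70 in T-47D cells and passed no test against 0 h. In T-47D cells KYNU, an enzyme of tryptophan breakdown, fell from 156.3 and 140.0 to 92.3 and 98.4 CPM (-0.64, adjusted p 1.69e-07), and ALDH1A3 fell (-0.35, adjusted p 0.0133).

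Of 17 transporters of estrogen conjugates, 11 were tested in Ishikawa cells (2 rose, 1 fell, median 0.10) and 12 in T-47D cells (2 rose, 3 fell, median -0.32), beside 22.1% and 29.7% of all genes. ABCC3, an exporter of sulfates and glucuronides, fell in both lines. It was at 68.2 and 96.6 CPM before E2 and 46.6 and 35.1 after 8 h in Ishikawa cells (-1.01, SE 0.17, adjusted p 0.000782) and at 12.1 and 13.0 before E2 and 9.10 and 8.77 after 8 h in T-47D cells (-0.49, SE 0.10, adjusted p 0.00123). The organic anion carrier SLCO4A1 rose in both lines (1.13, adjusted p 0.00316 in Ishikawa, and 1.28, adjusted p 0.0186 in T-47D cells). It was named for its change in Ishikawa cells, with 50 to 150 counts per library. In T-47D cells it had only 13 to 50 counts, below the mean of 50 asked of named genes. Its mean level there was 0.383 CPM before E2 and 0.940 after 8 h. The exporter ABCC4 rose in Ishikawa cells (0.37, adjusted p 0.00876), while in T-47D cells SLCO3A1 fell (-0.79, adjusted p 7.05e-06) and ABCC11 rose (0.26, adjusted p 0.00887). The plot of the other genes at 8 h shows these values with their errors.

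**Figure D5:**
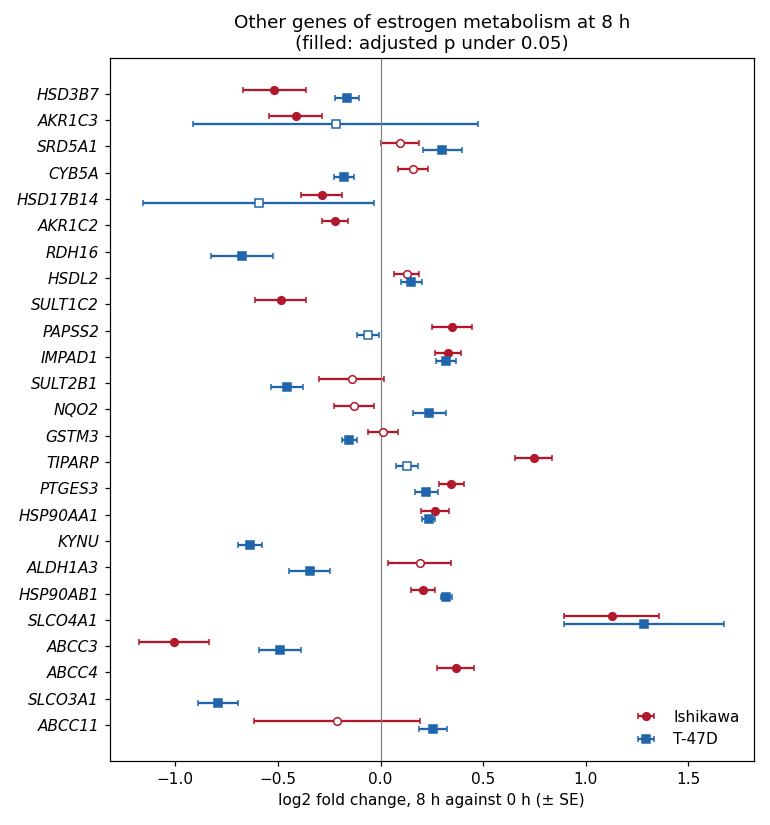
Log2 fold change at 8 h against 0 h (± SE of the edgeR fit) for the genes named from the 6 lists, in Ishikawa cells (red circles) and T-47D cells (blue squares); filled points have an adjusted p under 0.05, and a missing point means that the gene did not pass the filter in that line. SLCO4A1 and IMPAD1 lie to the right and ABCC3 and HSD3B7 to the left in both lines.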

How the data were processed

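Sources were the study's methods, the labels and the deposited tables. The authors isolated poly(A) RNA, made libraries with a directional kit, aligned reads to hg19 with HISAT2 and counted reads per gene with featureCounts. The deposited values are raw counts, 1 table per cell line. Versions and the strand setting are not given in the sources used here. Among counts of 1 to 10, 71.2% to 74.6% per library were even numbers, so single counts may not be independent reads.

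Tests used edgeR 4.0.16 in R 4.3.3 (filterByExpr, TMM, quasi-likelihood F-test, Benjamini-Hochberg over all genes tested, adjusted p under 0.05). Each line was fitted over its 8 libraries with time as a factor, testing 15787 genes for Ishikawa and 15594 for T-47D, and both lines were fitted together over 16 libraries for the difference at 0 h and the difference of responses (17090 genes). SE was taken as the absolute log2 change over the root of F. The code was tested on simulated data. DESeq2 1.42.0, RLE scaling, other filters and thresholds, a replicate block, fewer libraries and the 4-h and 8-h Ishikawa libraries as 1 group were alternatives.

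The members and gene lists were chosen with earlier results of these data known. A withheld item on these lists is not reported here. List genes named have the largest change at 8 h among those called with a mean of at least 50 counts, up to 3 per list and line. Positions and lengths come from GENCODE on GRCh37 and promoters from RefSeq. CPM uses TMM-scaled library sizes, and log2 CPM a prior count of 2. Replicate pairs were compared and no library was a copy of another.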

Additional observations from a re-analysis of the deposited data

Results flagged for a closer look

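Responses of the genes outside the 9 members that differed between the lines, by the test of T-47D minus Ishikawa over all 16 libraries (edgeR, adjusted p under 0.05), are given as log2 differences. The response of TIPARP was lower in T-47D cells, by -0.56 after 2 h (adjusted p 0.00452), -0.50 after 4 h (0.00834) and -0.62 after 8 h (0.000832). CYB5A differed by -0.39 at 4 h (adjusted p 0.0115) and -0.34 at 8 h (0.0211). The exporter ABCC1 differed by -0.31 at 4 h (adjusted p 0.0475) and -0.41 at 8 h (0.00545). ABCC3 differed at 4 h by 0.81 (adjusted p 0.0469). At 8 h PAPSS2 differed by -0.41 (adjusted p 0.00892) and BPNT1, which clears the by-product of sulfation in the cytosol, by -0.28 (0.0143). At 8 h HSD17B7 differed by 0.47 (adjusted p 0.0250) and DHRS11 by 0.43 (0.0308). The E2 target gene PGR had smaller log2 rises in T-47D cells. Its differences were -1.56 after 2 h, -2.69 after 4 h and -2.66 after 8 h (adjusted p 1.83e-05, 3.50e-09 and 2.51e-09). GREB1 had larger log2 rises there, by 1.17 at 2 h and 0.50 at 8 h (adjusted p 5.05e-06 and 0.0120). At 0 h both genes were already higher in T-47D cells, PGR by 9.16 and GREB1 by 3.76 on the log2 scale. Their rises thus began from unlike levels in the lines.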

How the results depend on the processing

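Each number below is a count of members called unless it is named as a log2 value, and causes were not tested. Against 0 h, Ishikawa cells at 2 h went from 1 to 2 with an adjusted p under 0.1, DESeq2, no filter or only the time points compared, and from 0 to 2 without single libraries (0 without 0 h replicate 2). At 4 h they went from 1 to 3 with no filter and to 2 with only the time points compared or the 4-h and 8-h libraries as 1 group. T-47D cells at 2 h went from 1 to 2 with an adjusted p under 0.1, no filter or only the time points compared, and to 1 to 3 without single libraries (3 without 0 h replicate 1). T-47D cells at 4 h went from 3 to 1 to 5 without single libraries (1 without 4 h replicate 1, 5 without 8 h replicate 1). At 8 h against 0 h the counts stayed within 2 to 4 in Ishikawa (3 as reported) and 3 to 5 in T-47D cells (4 as reported) under the alternatives run. Differences of response went from 0 to 1 at 2, 4 and 8 h with no filter, at 4 h also with an adjusted p under 0.1 or DESeq2, and 0 to 1 at each time without single libraries. Against 2 h, Ishikawa cells at 4 h went from 2 to 1 with an adjusted p under 0.01 or DESeq2 (1 to 2 without single libraries). At 8 h they went from 1 to 2 with an adjusted p under 0.1 or RLE scaling and 3 with no filter (1 to 3 without single libraries, 3 without 8 h replicate 1). T-47D cells at 4 h went from 1 to 2 with an adjusted p under 0.1 or no filter and 3 with only the time points compared (0 to 2 without single libraries, 0 without 2 h replicate 2), and at 8 h from 2 to 1 to 4 (1 without 2 h replicate 2, 4 without 8 h replicate 1).

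Values that changed sign were uncalled. HSD17B4 became -0.011 with the late Ishikawa libraries as 1 group (4 h), 0.00013 and 0.00032 with at least 10 counts (T-47D, 2 and 8 h) and 0.0041 with no filter (T-47D, 8 h). Without single libraries the log2 ranges in Ishikawa cells at 2 h were HSD17B1 -0.090 to 0.0086, HSD17B4 -0.034 to 0.093, STS -0.13 to 0.11, SULT1E1 -0.30 to 0.25 and AHR -0.033 to 0.19. At 4 h they were HSD17B1 -0.14 to 0.013, HSD17B4 -0.046 to 0.081 and AHR -0.042 to 0.18, and at 8 h HSD17B4 -0.10 to 0.030. In T-47D cells they were HSD17B2 -0.33 to 0.93 and HSD17B4 -0.024 to 0.023 at 2 h, HSD17B4 -0.016 to 0.031, STS -0.0090 to 0.086 and AHR -0.0028 to 0.031 at 4 h, and HSD17B4 -0.039 to 0.038 at 8 h. The HSD17B12 difference at 0 h ranged from -0.12 to 0.057. Differences of response ranged from -0.088 to 0.33 (CYP1A1, 2 h), -0.011 to 0.19 (STS, 2 h), -0.37 to 0.067 (CYP1B1, 4 h) and -0.52 to 0.062 (CYP1B1, 8 h).

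Same-numbered replicates did not deviate together (r -0.11 to 0.05 in Ishikawa cells, -0.05 to 0.06 in T-47D cells), so no shared shift by replicate number was seen. These values cannot show whether same-numbered samples were handled together, and the main fits used no pairing. With a replicate block T-47D cells at 4 h had 2 calls in place of 3, since HSD17B12 missed the threshold (0.17, adjusted p 0.0519), and the HSD17B12 difference at 0 h became 0.0063. Of 1194 recomputed values 1085 kept their direction and side of the threshold. Depth limited HSD17B2, which had 0 to 18 counts.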

Other observations

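For each member called in a line, the genes whose log2 CPM followed it most closely over the 8 libraries of that line are given as a description. The 8 points share libraries and time, and 13181 (Ishikawa) and 13027 (T-47D) genes were compared, so high values of Pearson's r arise readily. In Ishikawa cells CYP1A1 was followed by ADGRF1 (0.99), GAS2L1 (0.99) and CTNNA1 (0.99), CYP1B1 by TFAP2C (0.98), NR2F6 (0.97) and PRR15 (0.97), SULT1E1 by IRF7 (0.98), RAB3B (0.97) and STPG1 (0.96), and HSD17B12 by SMC5 (0.99), FAM199X (0.99) and MKLN1 (0.98). In T-47D cells CYP1A1 was followed by TRIP12 (0.99), PCDHA11 (0.98) and TMLHE (0.98), CYP1B1 by ZNF195 (0.97), CRIPAK (0.97) and AFF1 (0.97), HSD17B1 by FBXL19 (0.99), GRN (0.98) and MED25 (0.98), and HSD17B12 by AZIN1 (0.99), STRAP (0.99) and LAPTM4B (0.99). No gene was named for the same member in both lines. PCDHA11 belongs to a family of near-identical genes and its counts are uncertain.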
